A study of Mus musculus with 15 samples.

Results

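The genes described here encode the integrins, the laminins and nephronectin of the mouse aorta. They were taken as a list of 37 symbols out of the 34714 in the expression table: 17 integrin subunits of adherent cells, called vessel wall integrins here, 8 leukocyte integrin subunits, the platelet subunit Itga2b, 10 laminin chains and Npnt. All 37 were found in the table, and 28 of them passed the filter on low values (1 FPKM or more in 5 or more libraries), which 12603 genes of the table passed and were tested. Aorta RNA was sequenced in 15 libraries, 5 in each of 3 groups. AngII + RvE1 mice received angiotensin II, a peptide that constricts vessels and raises blood pressure, infused at 750 ng per kg per minute, and resolvin E1, a lipid mediator that the body makes from the omega-3 fatty acid EPA, injected intraperitoneally at 2 µg per kg per day. AngII mice received the infusion without resolvin E1, and Sham mice formed the control. All mice were labelled wild type. The labels give neither strain, age, sex, infusion length nor what the sham procedure was, and they do not say that the libraries of a group came from separate animals, so the p-values measure the spread between these libraries.

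Integrins are transmembrane receptors made of an alpha and a beta subunit that couple the extracellular matrix or a neighbouring cell to the actin cytoskeleton. Laminins are trimers of an alpha, a beta and a gamma chain and form the sheet of the basement membrane that surrounds each smooth muscle cell and underlies the endothelium. Nephronectin is a basement membrane protein known as a ligand of the integrin formed by the Itga8 and Itgb1 products. Leukocytes use further subunits, Itgb2 and Itgb7 among them, to adhere to and cross the vessel wall.

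Some libraries stood apart before any member was compared. AngII libraries 3, 4 and 5 had 12996, 12882 and 12894 genes at 1 FPKM or more, against at most 12248 in the other libraries. The summed value of 6 B cell markers, 3 of them tested, was 717, 222 and 1096 FPKM in these 3 libraries. It was 8.90 and 3.68 FPKM in AngII libraries 1 and 2. The aortic label fitted the smooth muscle markers, whose 8 genes, among them Acta2 and Myh11, summed to 5355 to 9626 FPKM in AngII + RvE1, 1195 to 3378 FPKM in AngII and 1741 to 12140 FPKM in Sham, with none at 0. The lowest Sham sum was that of library 3. Fat was also present, with 5 adipocyte markers summing to 6135 to 11700 FPKM in AngII + RvE1, 7676 to 15330 FPKM in AngII and 6442 to 17760 FPKM in Sham. The 5 cardiac muscle markers were uneven, with sums of 8.8 to 1025, 10.3 to 1848 and 37.4 to 763 FPKM in the same order of groups. The 5 skeletal muscle markers summed to 14.4 to 90.0, 3.695 to 1124 and 5.77 to 32.8 FPKM. The value of 1124 FPKM was that of AngII library 4. The part of heart and skeletal muscle in the member values was not tested. In such bulk tissue, fewer cells of a type and less RNA per cell cannot be told apart.

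Itgb1, the common beta partner of most matrix-binding integrins, had the highest level of the 37 genes in every group. It averaged 186 ± 40.7 FPKM in AngII + RvE1, 97.4 ± 21.4 FPKM in AngII and 158 ± 72.6 FPKM in Sham (n = 5 each, SD). In AngII + RvE1 the next were Itga8 at 147 ± 32.4 FPKM, Itgb5 at 124 ± 22.9 FPKM, Npnt at 113 ± 25.2 FPKM, Itga5 at 107 ± 33.0 FPKM and Lamb2 at 74.8 ± 12.5 FPKM. Every neighbour in that order, from Itgb1 to Lamb2, differed from the next by less than the larger of their SDs. The Sham order had the same first 4 genes, with Itga8 at 129.0 ± 78.0 FPKM. In AngII the step from Itgb1 to the next gene, Itgb5 at 45.5 ± 21.5 FPKM, was larger than either SD. Itga8 was 4th there at 35.5 ± 20.9 FPKM, after Itga5, and Itgb2, ranked 22nd in AngII + RvE1 and 20th in Sham, came 7th at 20.6 ± 21.3 FPKM. Levels of different genes are compared here in FPKM, a unit that takes transcript length into account and was assumed, since the file names none.

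**Figure D1:**
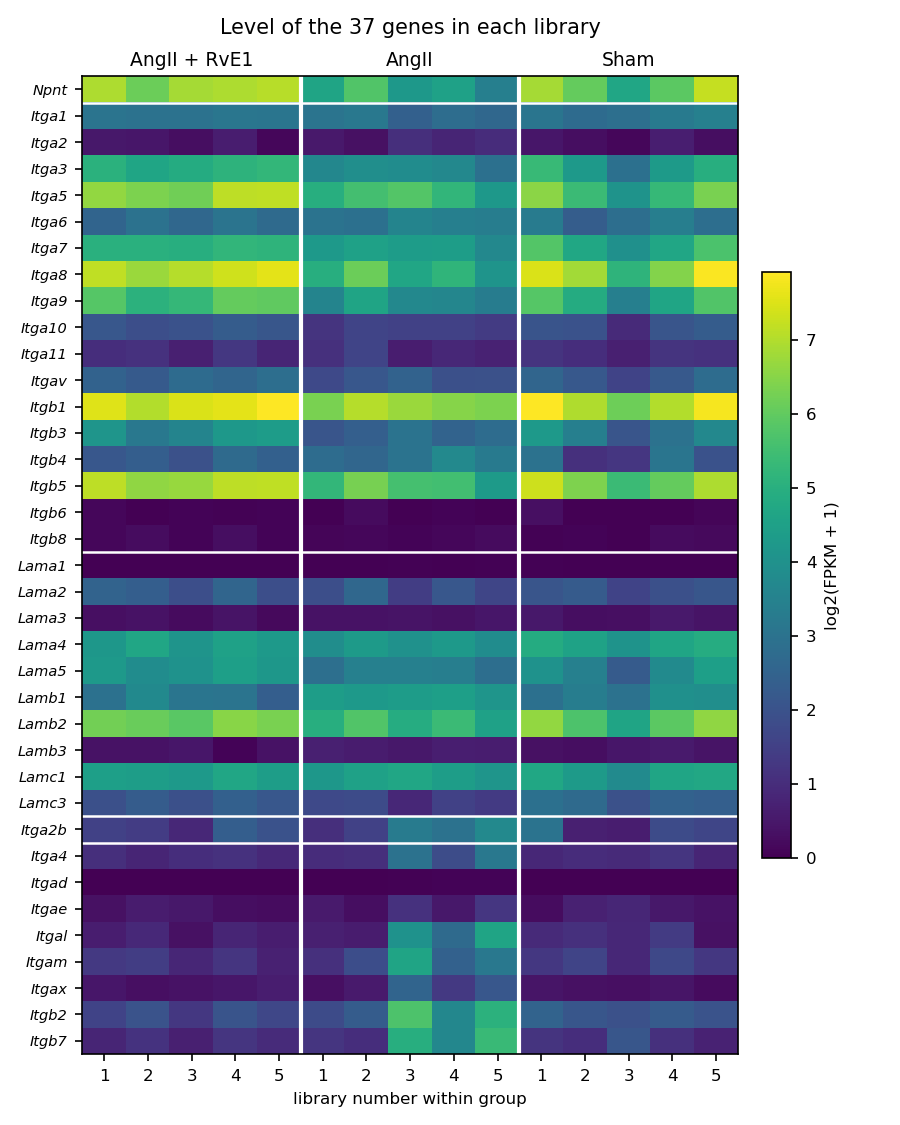
Level of each of the 37 genes (rows, grouped by role) in each of the 15 libraries (columns), as colour on the log2(FPKM + 1) scale. The vessel wall rows Itga8, Itgb5 and Itga5 and the Npnt row are darker in AngII than in AngII + RvE1, and the leukocyte rows are bright in AngII libraries 3, 4 and 5.

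The group comparisons asked what resolvin E1 treatment changed under angiotensin II, what the infusion itself changed, and how treated mice compared with Sham. AngII entered the first and the second of these, so their differences are not independent of each other. Between AngII + RvE1 and AngII, limma called 11 of the 28 tested members at an adjusted p below 0.05, 9 higher and 2 lower, where 8.52% of all genes tested were called. Between AngII and Sham it called 2 of 28, both lower, where 3.17% of all genes were called. Between AngII + RvE1 and Sham it called 0 of 28, where 0.0238% of all genes were called (0.0159% higher and 0.00793% lower), and 1 member, Itga5, had an unadjusted p under 0.05. All differences are on the log2(FPKM + 1) scale and are given ± their standard error, while levels are given ± SD. On this scale the added 1 makes the change of genes with low values look smaller. The median difference of all genes tested was -0.11 for AngII + RvE1 against AngII and 0.11 for AngII against Sham, and rescaling each library by its median ratio moved these medians to -0.03 and 0.01. Of all genes called between AngII + RvE1 and AngII, 49.4% were higher, or 63.2% after rescaling, and between AngII and Sham 74.5%, or 51.1% after rescaling.

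**Figure D2:**
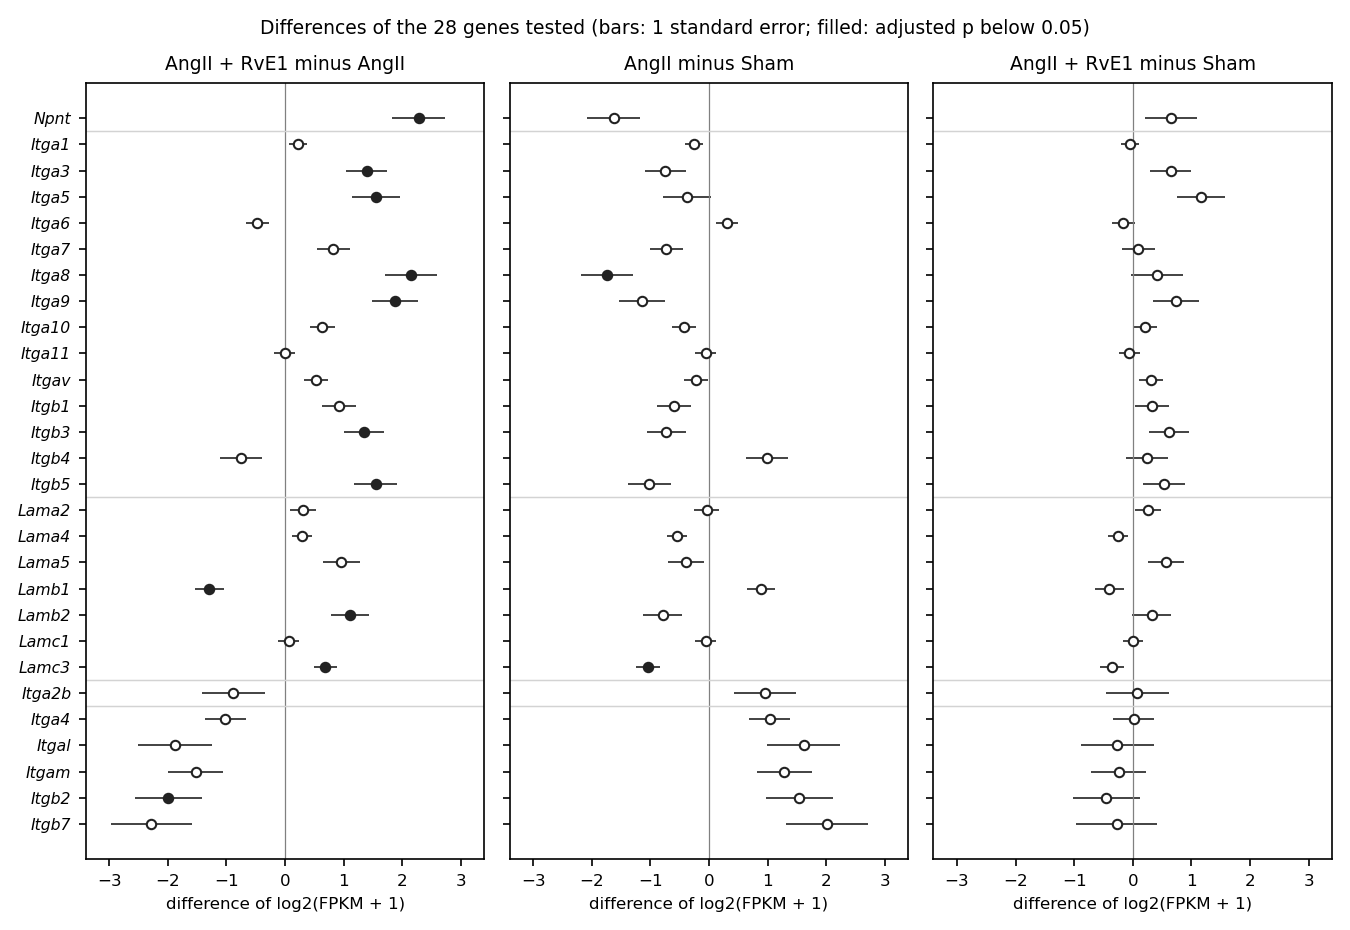
Difference of log2(FPKM + 1) (points) with 1 standard error (bars) for the 28 tested genes, by role, in the 3 comparisons. Filled points passed an adjusted p of 0.05: 11 in AngII + RvE1 minus AngII, 2 in AngII minus Sham and none in AngII + RvE1 minus Sham.

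Nephronectin and its receptor subunit had the largest rises of the 28 genes tested, in AngII + RvE1 against AngII. Npnt, at chromosome 3 from 132881745 to 132950291 in the mm10 build, was 124, 69.7, 115, 123 and 134 FPKM in AngII + RvE1 libraries 1 to 5, 24.0, 53.9, 17.6, 22.3 and 9.75 FPKM in AngII, and 114, 65.0, 24.7, 59.6 and 150.4 FPKM in Sham. Every AngII + RvE1 library was above every AngII library. The lowest Sham library, at 24.7 FPKM, was above every AngII library but library 2, and the highest Sham library was above every AngII + RvE1 library. Npnt rose by 2.28 ± 0.45 on the log2 scale in AngII + RvE1 against AngII (standard error; adjusted p = 0.016, limma), a ratio of mean FPKM of 4.43. Against Sham, the AngII difference was -1.63 ± 0.45 (adjusted p = 0.0586, limma).

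Itga8 encodes the alpha subunit of the nephronectin receptor and is known as a smooth muscle integrin in arteries. The gene lies at chromosome 2 from 12106632 to 12301985. It was 142, 107, 129.9, 163 and 192 FPKM in AngII + RvE1, 30.4, 70.6, 24.9, 35.3 and 16.3 FPKM in AngII, and 177, 113, 35.0, 86.0 and 234 FPKM in Sham. AngII + RvE1 and AngII did not overlap, while Sham library 3 lay within the AngII range. Itga8 rose by 2.15 ± 0.44 in AngII + RvE1 against AngII (adjusted p = 0.0177, limma) and fell by 1.73 ± 0.44 in AngII against Sham (adjusted p = 0.0458, limma). It made up 36.9 ± 2.35% of the summed alpha subunit FPKM in AngII + RvE1, 20.8 ± 9.46% in AngII and 40.9 ± 5.90% in Sham (n = 5 each, SD). Every AngII share, from 11.7% to 34.2%, was below every AngII + RvE1 share, from 34.5% to 40.1%.

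The promoters of this ligand and receptor pair are shown because both genes rose in AngII + RvE1 against AngII. They are RefSeq sequences of GRCm38.p6, 250 bases before to 50 after the annotated start, both read from the minus strand, at chr2:12301895-12302194 for Itga8 and chr3:132950242-132950541 for Npnt.
Itga8: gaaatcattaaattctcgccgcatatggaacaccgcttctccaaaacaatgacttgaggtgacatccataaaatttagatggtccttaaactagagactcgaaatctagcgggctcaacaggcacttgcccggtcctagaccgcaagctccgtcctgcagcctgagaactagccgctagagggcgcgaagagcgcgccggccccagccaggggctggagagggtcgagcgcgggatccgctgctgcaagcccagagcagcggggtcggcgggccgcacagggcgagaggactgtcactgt
Npnt: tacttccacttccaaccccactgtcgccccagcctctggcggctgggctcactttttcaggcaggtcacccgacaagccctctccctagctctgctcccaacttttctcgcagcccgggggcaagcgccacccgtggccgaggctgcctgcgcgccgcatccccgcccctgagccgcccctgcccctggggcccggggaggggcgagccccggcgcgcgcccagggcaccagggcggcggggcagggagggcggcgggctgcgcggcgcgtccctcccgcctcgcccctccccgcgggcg
They were searched on both strands for the CArG box, the element bound by serum response factor in smooth muscle genes, for GAGGAA, a core of purine-rich elements of leukocyte promoters, and for GGAATG, a core of elements bound by TEAD factors; matches are in capitals wherever a promoter is printed. No match lay in either window. A CArG box was found in 1.63%, GAGGAA in 28.3% and GGAATG in 14.7% of all 32851 promoters of this length. Of the 37 members, 24 had an entry used here; a CArG box was found in those of Itgb6 and Lama2, and GGAATG in those of Itga10, Itgb1 and Lamb3. These matches describe the letters only. In the Itgb1 window the GAGGAA match and the GGAATG match overlapped, and no other matches of different motifs did so among the members.

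The smooth muscle markers moved with these genes. Of 8 such markers, 7 rose in AngII + RvE1 against AngII, where 4.21% of all genes tested were called higher. Their median difference was 1.85, beside -0.11 for all genes. Myh11, the smooth muscle myosin heavy chain, for example rose by 1.92 ± 0.39 (adjusted p = 0.0175, limma). Myocd, the coactivator myocardin, fell by 1.63 ± 0.41 in AngII against Sham (adjusted p = 0.0454, limma). It was the 1 call of the 8 there, where 0.809% of all genes were called lower. Set against the mean log2 level of the 8 markers in the same library, Itga8 lay at -0.90 ± 0.13 in AngII + RvE1, -1.40 ± 0.28 in AngII and -0.80 ± 0.35 in Sham (n = 5 each, SD), and Npnt at -1.28 ± 0.20, -1.90 ± 0.42 and -1.42 ± 0.31 in the same order of groups. For both genes the AngII range overlapped that of AngII + RvE1 on this scale. Itga9 and Itga5, read in the same way, did not share this order. Itga9 lay at -2.42 ± 0.13, -2.65 ± 0.31 and -2.64 ± 0.18, so AngII and Sham were level. Itga5 lay at -1.375 ± 0.227, -1.27 ± 0.58 and -2.03 ± 0.11, with the highest mean in AngII. The part of smooth muscle content in the results was not tested.

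Of the 14 vessel wall integrins tested, 6 rose and 0 fell in AngII + RvE1 against AngII, where 4.21% of all genes tested were called higher. The median difference of the 14 was 0.87, beside -0.11 for all genes. The libraries of both groups did not overlap, with AngII + RvE1 higher, for 8 of the 14, those 6 with Itga7 and Itga10, where this was so for 5.87% of all genes. Beside Itga8, the 6 were Itga9, Itga5, Itgb5, Itga3 and Itgb3.

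Itga9, whose product pairs with that of Itgb1 and binds tenascin-C and osteopontin, was 55.9, 33.5, 37.8, 65.2 and 62.9 FPKM in AngII + RvE1, 11.01, 23.8, 11.9, 11.5 and 9.09 FPKM in AngII, and 55.6, 28.6, 9.82, 24.3 and 54.3 FPKM in Sham. AngII library 2 was just below Sham libraries 2 and 4, and the other 4 AngII libraries were close together below it. Itga9 rose by 1.88 ± 0.39 in AngII + RvE1 against AngII (adjusted p = 0.0179, limma). The AngII difference from Sham was -1.14 ± 0.39 (adjusted p = 0.0972, limma).

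Itga5, the alpha subunit of the classical fibronectin receptor, was 98.2, 81.5, 72.3, 139.7 and 144 FPKM in AngII + RvE1, 30.5, 45.7, 55.6, 35.9 and 17.7 FPKM in AngII, and 92.6, 41.8, 15.7, 38.8 and 78.9 FPKM in Sham. The lowest AngII + RvE1 library was above the highest AngII library, and of the 5 Sham libraries 2 lay within the AngII range, 2 above it and library 3 below it. The difference was 1.55 ± 0.41 for AngII + RvE1 against AngII (adjusted p = 0.037, limma) and -0.38 ± 0.41 for AngII against Sham (adjusted p = 0.598, limma). Itga5 was also 1.17 ± 0.41 higher in AngII + RvE1 than in Sham, which did not pass the threshold (adjusted p = 0.664, limma). Its share of alpha subunit FPKM was 26.5 ± 2.91% in AngII + RvE1, 21.6 ± 5.28% in AngII and 17.1 ± 1.87% in Sham (n = 5 each, SD), and the shares of AngII + RvE1 and Sham did not overlap.

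Itgb5, which pairs with Itgav and binds vitronectin, was 141, 96.5, 103, 139 and 144 FPKM in AngII + RvE1, 37.3, 78.5, 47.7, 44.8 and 19.2 FPKM in AngII, and 158, 83.0, 40.9, 65.1 and 124 FPKM in Sham. It rose by 1.54 ± 0.36 in AngII + RvE1 against AngII (adjusted p = 0.0237, limma). As with Itga8 and Npnt, AngII library 2 was the highest and AngII library 5 the lowest of that group.

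Itga3, the alpha subunit of a laminin receptor, was 32.7, 24.3, 28.5, 34.2 and 37.4 FPKM in AngII + RvE1, 11.6, 14.2, 13.4, 12.1 and 6.61 FPKM in AngII, and 39.8, 17.9, 6.55, 18.8 and 30.3 FPKM in Sham. It rose by 1.39 ± 0.35 in AngII + RvE1 against AngII (adjusted p = 0.029, limma). The AngII libraries were narrow but for library 5, and Sham library 3 was as low as that one.

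Itgb3, the beta subunit that pairs with Itgav in the vessel wall and with Itga2b on platelets, was 16.8, 8.02, 10.9, 17.7 and 20.1 FPKM in AngII + RvE1, 3.24, 4.33, 7.03, 4.74 and 5.97 FPKM in AngII, and 18.0, 9.78, 3.26, 6.94 and 11.9 FPKM in Sham. It rose by 1.34 ± 0.34 in AngII + RvE1 against AngII (adjusted p = 0.0312, limma). Here the groups were separated by a small gap, between AngII + RvE1 library 2 and AngII library 3.

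**Figure D3:**
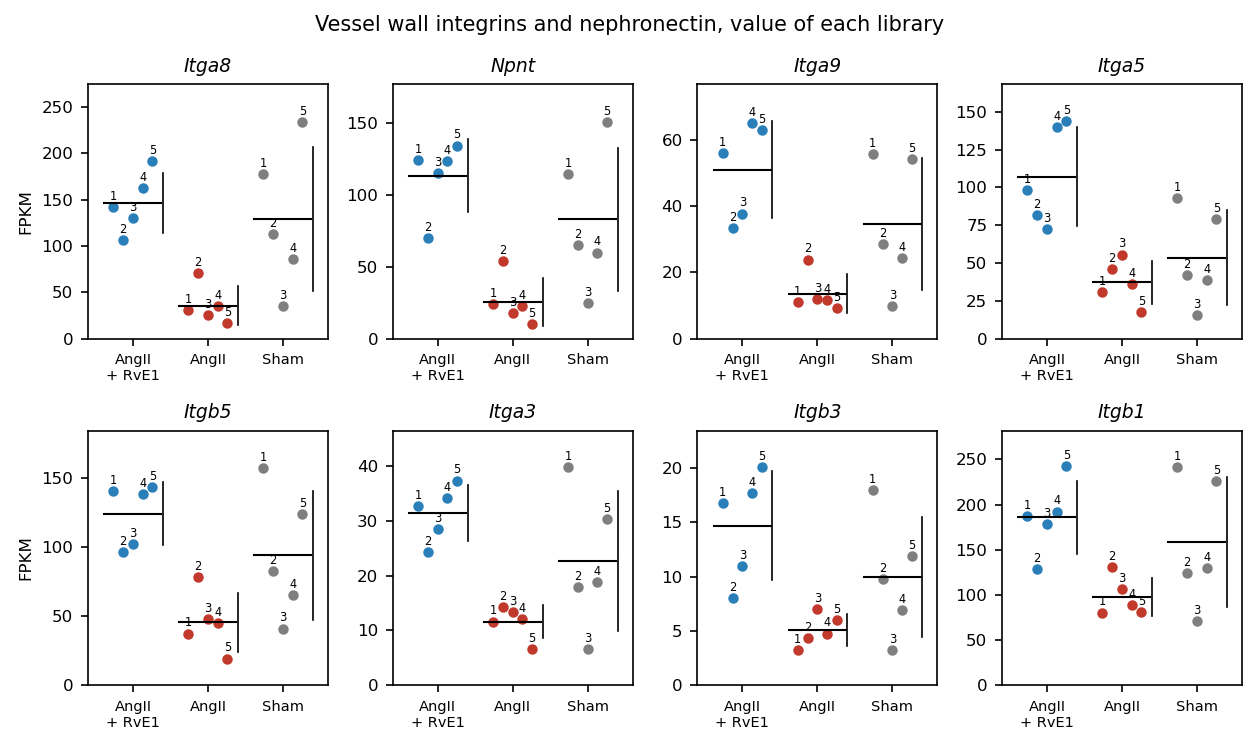
FPKM of Itga8, Npnt, Itga9, Itga5, Itgb5, Itga3, Itgb3 and Itgb1 in each library (points, with the library number), by group, with the group mean (horizontal line) and 1 SD (vertical line), n = 5. For all but Itgb1 the AngII + RvE1 points lie above every AngII point, and Sham points spread widely.

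Itgb1 itself was 187, 128, 179, 192 and 243 FPKM in AngII + RvE1, 80.4, 131, 107, 88.7 and 80.6 FPKM in AngII, and 241, 124, 71.1, 129 and 226 FPKM in Sham. AngII + RvE1 library 2 and AngII library 2 were nearly level, so the groups overlapped. The difference was 0.92 ± 0.29 for AngII + RvE1 against AngII and did not pass the threshold (adjusted p = 0.0582, limma). Itga7, the muscle laminin receptor subunit, differed by 0.82 ± 0.28 and Itga10, a collagen receptor subunit, by 0.64 ± 0.21 without overlap, with adjusted p of 0.0786 and 0.0664 (limma). The remaining 5 of the 14, Itga1, Itga6, Itga11, Itgav and Itgb4, had differences between -0.75 and 0.53. Itgb4, the partner of Itga6 in epithelial hemidesmosomes, and Itga6 had negative values of -0.75 ± 0.36 and -0.47 ± 0.19 (adjusted p = 0.178 and 0.122, limma).

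Between AngII and Sham, 1 of the 14 vessel wall integrins, Itga8, was called lower and 0 were called higher, where 0.809% of all genes were called lower and 2.36% higher. The median difference of the 14 was -0.51, beside 0.11 for all genes, and 12 of the 14 values were below 0, but the groups overlapped for all 14, where they did not for 3.7% of all genes tested. The Sham spread was wide: the mean log2 level of the 14 genes was 3.11 in Sham library 3 and 4.69 in Sham library 1. Without Sham library 3, limma called 13 members lower in AngII against Sham, of which 8 were vessel wall integrins. Without Sham library 2 or AngII library 5 it called 0 members in this comparison, and Itga8 was called in 3 of the 15 fits that left out 1 library, those without Sham library 3, AngII library 1 or AngII library 2.

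The calls for vessel wall genes in AngII + RvE1 against AngII depended on single libraries. Of the 9 members called higher, 0 were called without AngII library 5 or AngII + RvE1 library 5, 1 (Npnt) without AngII + RvE1 library 4, 2 (Itga8 and Npnt) without AngII + RvE1 library 1, 4 without AngII library 4, 5 without AngII + RvE1 library 3 and 6 without AngII library 3. Without AngII libraries 3, 4 and 5 together, 0 members were called, and 0 of all genes tested were called higher and 1 lower. The differences were then 1.61 ± 0.58 for Itga8, 1.59 ± 0.56 for Npnt, 1.54 ± 0.55 for Itga9, 1.44 ± 0.54 for Itga5 and 1.65 ± 0.47 for Itgb3, with AngII represented by 2 libraries and adjusted p from 0.304 to 0.36 for these 5 genes (limma). The other 4 of the 9 were at 1.21 ± 0.47 for Itga3, 1.17 ± 0.44 for Itgb5, 0.87 ± 0.45 for Lamb2 and 0.37 ± 0.23 for Lamc3, with adjusted p from 0.368 to 0.525 (limma); the value of Lamc3 with all libraries was 0.69.

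The laminin chains did not all move in the same direction. Of 10 chains, 7 were tested: Lamb2 and Lamc3 rose and Lamb1 fell in AngII + RvE1 against AngII, where 4.21% of all genes were called higher and 4.31% lower. The median difference of the 7 was 0.30, beside -0.11 for all genes, and 6 of the 7 values, all but that of Lamb1, were above 0. In AngII against Sham, Lamc3 fell, the 1 call of the 7, where 0.809% of all genes were called lower. The median difference there was -0.40, beside 0.11 for all genes, and 6 of the 7 values, again all but that of Lamb1, were below 0.

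Lamb1, the beta chain of the laminins made in many embryonic and adult basement membranes, lies at chromosome 12 from 31265146 to 31329644. It was 6.73, 12.5, 7.49, 7.28 and 4.17 FPKM in AngII + RvE1, 20.2, 18.1, 19.9, 21.2 and 16.7 FPKM in AngII, and 6.60, 9.34, 6.91, 14.9 and 14.2 FPKM in Sham. All 5 AngII libraries, also libraries 1 and 2, were above every library of the other groups and close to each other. Among all genes, AngII lay wholly above Sham for 2.92% and wholly below for 0.778%, the second of which is what Lamc3 did. Lamb1 fell by 1.29 ± 0.24 in AngII + RvE1 against AngII (adjusted p = 0.0148, limma). In AngII against Sham the difference was 0.89 ± 0.24 (adjusted p = 0.0573, limma). The difference for AngII + RvE1 against AngII was -1.29 ± 0.35 without AngII libraries 3, 4 and 5 (adjusted p = 0.299, limma), and the call was made in all 15 fits that left out 1 library. The Lamb1 promoter, chr12:31265043-31265342 on the plus strand, is shown because Lamb1 moved opposite to Lamb2.
Lamb1: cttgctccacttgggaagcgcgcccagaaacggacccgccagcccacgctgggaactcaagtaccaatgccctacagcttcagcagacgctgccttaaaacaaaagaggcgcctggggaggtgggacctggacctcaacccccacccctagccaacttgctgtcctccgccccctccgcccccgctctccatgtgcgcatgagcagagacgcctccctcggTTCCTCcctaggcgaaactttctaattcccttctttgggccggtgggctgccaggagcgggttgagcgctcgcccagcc
Its capitals are a GAGGAA match on the opposite strand, which begins 29 bases before the start. All 5 laminin genes with an entry used here held GAGGAA, as did 6 of 13 vessel wall integrins. A gene was counted if any of its windows held it, while the 28.3% of all promoters is a share of windows. Lamb3, Itga3 and Itgb6 also had a window without it.

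Lamb2 encodes the beta chain typical of mature muscle and vascular basement membranes. It was 75.5, 68.0, 58.6, 91.6 and 80.2 FPKM in AngII + RvE1, 30.05, 53.4, 29.3, 41.3 and 22.4 FPKM in AngII, and 99.96, 51.4, 23.7, 59.6 and 97.2 FPKM in Sham. Even the lowest AngII + RvE1 library, library 3, exceeded the highest AngII library, library 2, and the Sham libraries spread from near the lowest AngII library to above every AngII + RvE1 library. Lamb2 rose by 1.11 ± 0.33 in AngII + RvE1 against AngII (adjusted p = 0.0496, limma), a call made in 4 of the 15 fits that left out 1 library. Lamb1 made up 9.43 ± 4.06% of laminin beta FPKM in AngII + RvE1, 36.1 ± 6.89% in AngII and 15.3 ± 6.32% in Sham (n = 5 each, SD). The AngII shares ran from 25.2% to 42.1%, above the 4.93% to 15.4% of AngII + RvE1 and the 6.18% to 22.3% of Sham.

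Lamc3, a less common gamma chain, lies at chromosome 2 from 31887281 to 31949083. It was 2.85, 3.93, 2.81, 4.41 and 3.49 FPKM in AngII + RvE1, 2.35, 2.53, 0.837, 1.92 and 1.55 FPKM in AngII, and 6.60, 5.67, 2.93, 4.63 and 4.30 FPKM in Sham. Its 5 AngII libraries were below every library of both other groups. It rose by 0.69 ± 0.20 in AngII + RvE1 against AngII (adjusted p = 0.0465, limma) and fell by 1.04 ± 0.20 in AngII against Sham (adjusted p = 0.0168, limma). Lamc3 had low values throughout. The call for AngII + RvE1 against AngII was made in 4 of the 15 fits that left out 1 library, and the call of AngII against Sham was lost without Sham library 2 or AngII library 5.

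No other laminin chain was called in any comparison. Lama5, an alpha chain of endothelial and smooth muscle basement membranes, was 18.3, 13.5, 15.3, 21.4 and 17.4 FPKM in AngII + RvE1 and 6.47, 9.92, 9.99, 9.40 and 6.25 FPKM in AngII; the groups did not overlap, yet the difference of 0.96 ± 0.31 missed the threshold (adjusted p = 0.0639, limma). Lamc1, the gamma chain common to most laminins, averaged 21.1 ± 2.20 FPKM in AngII + RvE1, 20.3 ± 3.54 FPKM in AngII and 21.6 ± 5.66 FPKM in Sham (n = 5 each, SD). Lama4 averaged 19.7 ± 3.77, 15.9 ± 2.46 and 23.9 ± 5.23 FPKM in the same order of groups, and Lama2 lay between 1.73 and 5.26 FPKM in all 15 libraries. Lama1, Lama3 and Lamb3 were under the filter, and none reached 1 FPKM in any library.

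**Figure D4:**
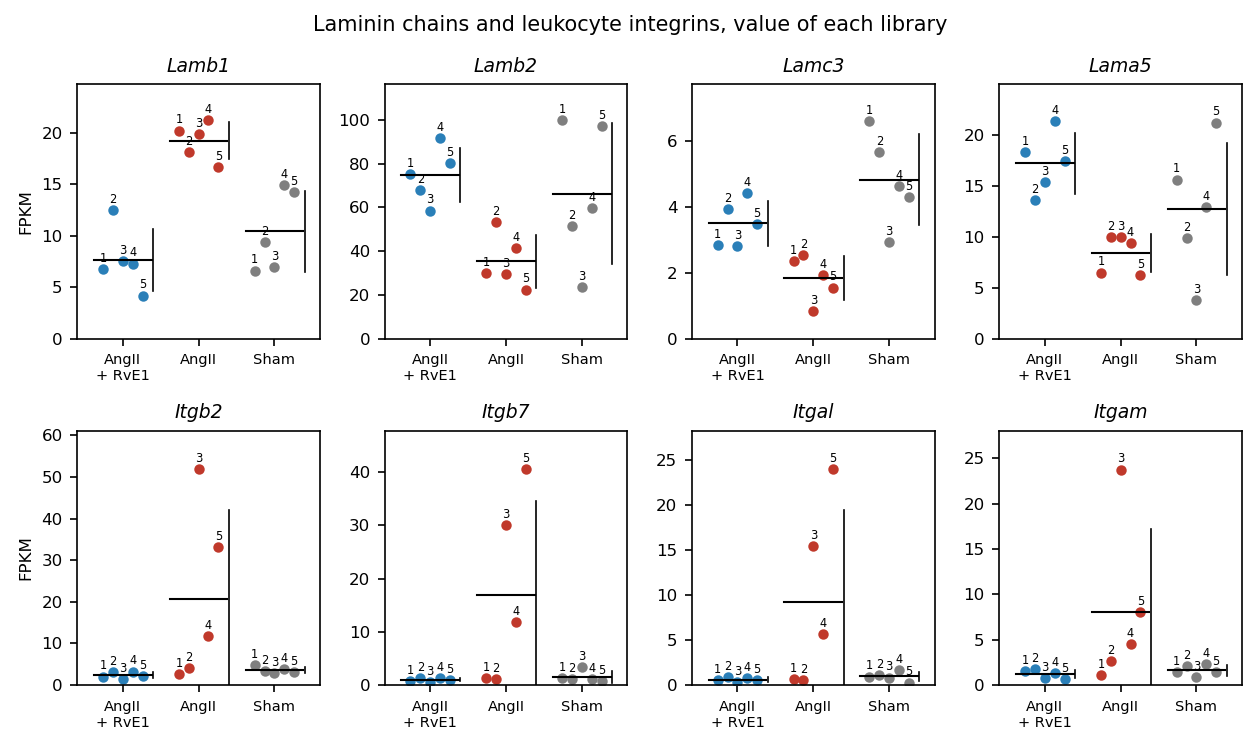
FPKM of Lamb1, Lamb2, Lamc3 and Lama5 (top) and of Itgb2, Itgb7, Itgal and Itgam (bottom) in each library (points, with the library number), by group, with the group mean (horizontal line) and 1 SD (vertical line), n = 5. The AngII points of Lamb1 lie close together above both other groups, while those of the leukocyte genes are split, with libraries 3, 4 and 5 high and libraries 1 and 2 near the other groups.

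Beside the laminins, the marker lists of cells that make basement membrane were read. The 8 endothelial markers summed to 185 to 349 FPKM in AngII + RvE1, 256 to 349 FPKM in AngII and 129.8 to 383 FPKM in Sham. Relative to their mean log2 level, Lamb1 lay at -1.51 ± 0.78 in AngII + RvE1, -0.54 ± 0.16 in AngII and -1.12 ± 0.64 in Sham, and all 3 ranges overlapped. Relative to 6 fibroblast markers, Lamb1 lay at -3.20 ± 0.51, -1.69 ± 0.53 and -2.53 ± 0.58 in that order (SD, n = 5 each). There the AngII range overlapped that of Sham, and its lowest value, -2.552, was just above the highest of AngII + RvE1, -2.564. Relative to 4 Schwann cell markers, Lamb1 lay at -0.47 ± 0.46, 0.25 ± 0.93 and 0.82 ± 0.98 in that order. Here the AngII mean was below that of Sham, and all 3 ranges overlapped. No marker of these 3 lists was at 0. Their part in the result was not tested.

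The leukocyte integrins were high in some AngII libraries and low elsewhere. Of 8 genes, Itga4, Itgal, Itgam, Itgb2 and Itgb7 were tested, and Itgad, Itgae and Itgax were under the filter. Itgal, the alpha subunit of LFA-1, passed it with exactly 5 libraries, 3 of them AngII. Itgb2, the beta subunit of the leukocyte integrins, lies at chromosome 10 from 77530329 to 77565708. It was 2.05, 3.04, 1.43, 3.21 and 2.20 FPKM in AngII + RvE1, 2.54, 3.98, 51.9, 11.7 and 33.1 FPKM in AngII, and 4.78, 3.37, 2.88, 3.81 and 3.09 FPKM in Sham. AngII libraries 1 and 2 lay within the range of the other groups together, and libraries 3, 4 and 5 lay far above.

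Itgb2 fell by 1.99 ± 0.57 in AngII + RvE1 against AngII (adjusted p = 0.0451, limma), the 1 call among the 5 genes, where 4.31% of all genes were called lower. The call did not hold without AngII libraries 3, 4 and 5, with a difference of -0.34 ± 0.23 (adjusted p = 0.571, limma), and it was made in 4 of the 15 fits that left out 1 library. The median difference of the 5 was -1.88 in AngII + RvE1 against AngII and 1.54 in AngII against Sham, beside -0.11 and 0.11 for all genes. The -1.88 was the value of Itgal, which would not have passed the filter without AngII libraries 3, 4 and 5. Itgb7, which pairs with Itga4 on lymphocytes that home to gut, had a difference of -2.29 ± 0.69 (adjusted p = 0.0524, limma) and was 30.1, 11.9 and 40.5 FPKM in AngII libraries 3, 4 and 5, against 0.619 to 1.31 FPKM in AngII + RvE1. The groups overlapped for all 5 in every comparison, where AngII + RvE1 lay wholly below AngII for 5.23% of all genes. Without AngII library 1 or 2, limma called all 5 lower in AngII + RvE1 against AngII.

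T cell, B cell and macrophage markers were highest in the same 3 AngII libraries, and neutrophil markers were not in all of them. The 5 T cell markers found, of 6 listed, summed to 1.42 to 5.95 FPKM in AngII + RvE1, 2.15 to 149 FPKM in AngII and 0.758 to 24.3 FPKM in Sham, with 2 values at 0, both in Sham. All 6 B cell markers were summed, of which 3 were tested. Their sums were 4.29 to 7.32 FPKM in AngII + RvE1, 3.68 to 1096 FPKM in AngII and 2.62 to 37.2 FPKM in Sham. In this list 1 value, in AngII + RvE1, was at 0. The 6 macrophage markers summed to 70.6 to 88.7 FPKM in AngII + RvE1, 73.4 to 586 FPKM in AngII and 55.7 to 81.2 FPKM in Sham. Of these, 4, Csf1r, Cd68, Mrc1 and Cd163, fell in AngII + RvE1 against AngII, where 4.31% of all genes were called lower. AngII library 2, where the leukocyte integrins were low, had a macrophage sum of 145 FPKM, also above every AngII + RvE1 and Sham library. The 5 neutrophil markers, 2 of them tested, summed to 5.36 to 22.3 FPKM in AngII + RvE1. The sums were 10.5, 9.51, 224, 4.26 and 27.6 FPKM in AngII libraries 1 to 5, and 4.505 to 35.9 FPKM in Sham. So AngII library 4 had the lowest sum of all 15, and the highest Sham sum, in library 4, was above that of AngII library 5. Values at 0 in this list numbered 2, 2 and 5 in that order of groups. The part of these cells in the integrin values was not tested.

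Itgam, the alpha subunit of the Mac-1 receptor of myeloid cells, was 1.51, 1.74, 0.801, 1.35 and 0.654 FPKM in AngII + RvE1, 1.13, 2.67, 23.8, 4.47 and 8.07 FPKM in AngII, and 1.43, 2.06, 0.853, 2.29 and 1.46 FPKM in Sham. Its difference for AngII + RvE1 against AngII was -1.53 ± 0.47 (adjusted p = 0.0551, limma). Its promoter, chr7:128062390-128062689 on the plus strand, is shown because it held more GAGGAA matches than any other member promoter used here, with 3.
Itgam: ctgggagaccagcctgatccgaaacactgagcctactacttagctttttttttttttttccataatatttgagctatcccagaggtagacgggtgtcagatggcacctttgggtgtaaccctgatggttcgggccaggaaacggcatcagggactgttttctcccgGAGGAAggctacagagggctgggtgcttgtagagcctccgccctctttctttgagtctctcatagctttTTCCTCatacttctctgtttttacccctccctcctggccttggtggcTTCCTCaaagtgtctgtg
The matches in capitals begin 84 and 15 bases before and 32 bases after the start, the first on the printed strand and the others on the opposite one. Of the 4 leukocyte integrins with an entry used here, 2 held GAGGAA, which 28.3% of all promoters held.

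The contrast of vessel wall and leukocyte integrins was taken per library as the mean log2 level of the 14 tested wall genes minus that of the 5 tested leukocyte genes. It was 3.34, 2.89, 3.38, 3.35 and 3.64 in AngII + RvE1 libraries 1 to 5, 2.26, 2.53, -0.79, 0.77 and -1.07 in AngII, and 3.32, 2.50, 1.75, 2.51 and 3.50 in Sham. Every AngII + RvE1 value was above every AngII value, and leukocyte genes had the higher mean in AngII libraries 3 and 5 only. The wall mean alone was 4.42 ± 0.22 in AngII + RvE1, 3.58 ± 0.26 in AngII and 4.06 ± 0.63 in Sham, and the leukocyte mean 1.10 ± 0.19, 2.84 ± 1.56 and 1.34 ± 0.18 in that order (SD, n = 5 each). AngII libraries 1 and 2 had wall means of 3.43 and 3.91 at leukocyte means of 1.17 and 1.38, and AngII libraries 3, 4 and 5 had wall means of 3.68, 3.64 and 3.22. The wall mean of AngII library 2 was above those of Sham libraries 2 and 3, 3.88 and 3.11. The relation of the 2 means was not tested. Itgal, among the 5 leukocyte genes of these means, would not have passed the filter without AngII libraries 3, 4 and 5. Leukocyte subunits made up 0.981 ± 0.341% of all integrin FPKM in AngII + RvE1, 16.4 ± 15.5% in AngII and 2.16 ± 1.42% in Sham.

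**Figure D5:**
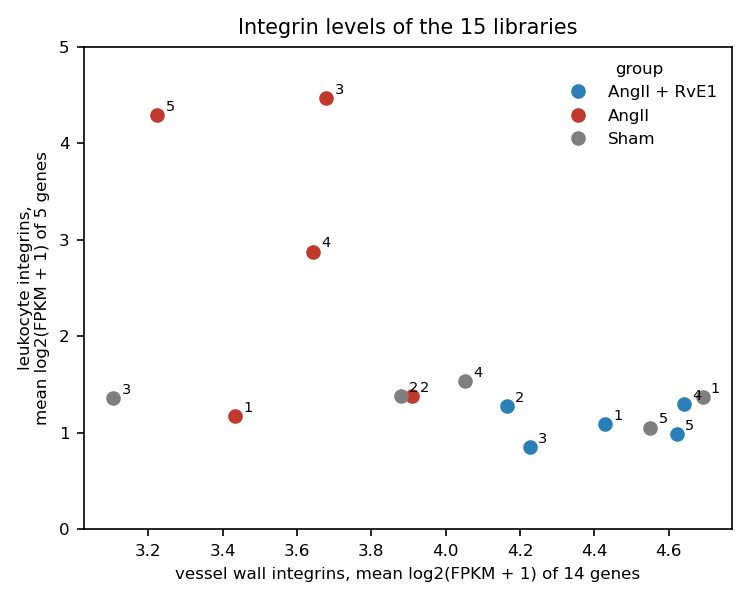
Mean log2(FPKM + 1) of 14 vessel wall integrins (horizontal) against that of 5 leukocyte integrins (vertical) in each of the 15 libraries, coloured by group and numbered. AngII libraries 3, 4 and 5 lie at leukocyte means of 4.47, 2.88 and 4.29, and the other 12 libraries lie between 0.85 and 1.54.

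Itga2b, the platelet alpha subunit, was 1.88, 1.66, 0.848, 4.20 and 3.03 FPKM in AngII + RvE1, 1.09, 1.90, 8.78, 6.92 and 12.4 FPKM in AngII, and 7.19, 0.620, 0.564, 2.48 and 2.15 FPKM in Sham. It was high in the same AngII libraries as the leukocyte genes and in Sham library 1. Its difference of -0.88 ± 0.54 for AngII + RvE1 against AngII did not pass the threshold (adjusted p = 0.29, limma). Of the vessel wall list, Itga2, Itgb6 and Itgb8 were under the filter. Itga2, a collagen receptor subunit, reached 1.11 FPKM in AngII library 3, and Itgb6 and Itgb8 stayed at or below 0.241 FPKM. The highest value of Itgax, a dendritic cell and macrophage subunit, was 4.89 FPKM and that of Itgae, found on mucosal T cells, was 1.40 FPKM, both in AngII, and Itgad did not pass 0.0644 FPKM.

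The partners of integrins and laminins were read from lists chosen for their function. Of 11 non-integrin laminin receptors, the dystroglycan complex among them, all were tested. In AngII + RvE1 against AngII, 7 rose and 0 fell, with a list median of 0.77, where 4.21% of all genes tested were called higher and 4.31% lower and the median of all was -0.11. Among them, Dmd, which encodes dystrophin, rose by 1.30 ± 0.27 (adjusted p = 0.0182), Sgcb, a sarcoglycan, by 0.79 ± 0.17 (adjusted p = 0.0205) and Sgca, another, by 1.52 ± 0.42 (adjusted p = 0.04), all from limma. Dag1, dystroglycan itself, was called in AngII against Sham, where it fell by 0.72 ± 0.17 (adjusted p = 0.0347, limma).

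Of 20 basement membrane partners, 16 were tested, and 6 rose and 0 fell in AngII + RvE1 against AngII, with a median of 0.57, beside the same shares of 4.21% and 4.31% and the median of -0.11 over all genes. Col18a1, the collagen from which endostatin is cut, averaged 226 ± 47.8 FPKM in AngII + RvE1 and 58.9 ± 30.5 FPKM in AngII (SD, n = 5 each) and rose by 2.05 ± 0.45 (adjusted p = 0.0204, limma). Smoc1, Col15a1 and Col4a6 rose by 1.38, 1.53 and 1.55 (adjusted p = 0.0148, 0.0205 and 0.0261, limma). Nid1 and Nid2, the nidogens that link laminin to type IV collagen, had negative values like Lamb1, -0.62 ± 0.22 and -0.58 ± 0.19, and missed the threshold (adjusted p = 0.0869 and 0.0723, limma; these genes were named after their values were seen). In AngII against Sham, 0 of 16 were called, where 3.17% of all genes were called.

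Of 29 integrin adaptors, 27 were tested, and 8 rose and 2 fell in AngII + RvE1 against AngII, where 4.21% and 4.31% of all genes did so; the 2 that fell are near that share. Flna, filamin A, rose by 1.70 ± 0.38, Tgfb1i1, the focal adhesion protein Hic-5, by 1.53 ± 0.36, and Vcl, vinculin, by 1.27 ± 0.30 (adjusted p = 0.0217, 0.025 and 0.0259, limma). Ptk2b, the kinase Pyk2, fell by 1.41 ± 0.31 (adjusted p = 0.0205, limma), and Apbb1ip, a RAP1 effector of leukocyte integrins, fell by 1.74 ± 0.50 (adjusted p = 0.0444, limma). In AngII against Sham, 0 of the 27 were called, where 3.17% of all genes were called.

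Among 12 soluble or matrix ligands, 11 were tested, and Vtn, vitronectin, was the 1 call. Vtn fell by 1.05 ± 0.28 in AngII + RvE1 against AngII (adjusted p = 0.0376, limma), while its receptor subunit Itgb5 rose. Of all genes, 4.31% were called lower in this comparison. Fn1, fibronectin, averaged 236 ± 55.3 FPKM in AngII + RvE1 and 103 ± 60.1 FPKM in AngII (SD, n = 5 each), a difference of 1.33 ± 0.42 that missed the threshold (adjusted p = 0.06, limma). Of 10 ligands of leukocyte integrins, 7 were tested, and Thy1, which binds the Mac-1 integrin, was the 1 call. Thy1 was higher by 1.06 ± 0.25 in AngII against Sham (adjusted p = 0.0362, limma), where 2.36% of all genes were called higher. In AngII + RvE1 against Sham, none of these 5 lists held a call, where 0.0238% of all genes were called. Without AngII libraries 3, 4 and 5, 1 of all genes tested was called in AngII + RvE1 against AngII, and it was in none of these lists.

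Between AngII + RvE1 and Sham, the member differences ran from -0.45 for Itgb2 to 1.17 for Itga5, and the groups overlapped for all 28, where they did not for 1.09% of all genes tested. Npnt differed by 0.65 ± 0.45 and Itga8 by 0.42 ± 0.44 (adjusted p = 0.879 and 0.959, limma). The median was 0.32 for the vessel wall integrins, -0.26 for the leukocyte integrins and 0.00 for the laminin chains, beside 0.02 for all genes tested. A p that missed the threshold does not show that treated and Sham aortas were alike, since the standard errors of the members were the same as in the other comparisons.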

How the data were processed

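The 37 members and all gene lists, and the omission of AngII libraries 3, 4 and 5, were chosen with earlier results of these data known. Per the labels' protocols, total RNA was extracted with an RNeasy kit and libraries were made with a SMARTER mRNA-Seq kit; mm10 is the build in the submitters' processing notes, and no source used here gives the aligner, counter or annotation. The authors deposited 1 value per gene symbol and library. The file names no unit, and the deposited values were treated as FPKM, so read depth is unknown; TPM over a wider gene set cannot be told apart. The values have decimals and sum to 385846 to 514281 per library, and because the table holds no counts, the fallback of the plan for normalised values was used. Gene coordinates came from the RefSeq table of GRCm38.p6.

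Genes with 1 FPKM or more in 5 or more of the 15 libraries were kept, and log2(FPKM + 1) was fitted by limma-trend (limma 3.58.1, R 4.3.3) with 1 mean per group over all libraries. The 3 comparisons were tested two-sided, with Benjamini-Hochberg adjustment over 12603 genes at 0.05. Values per library were given for members called in any comparison and for the member with the highest mean in each role; from the partner lists, up to 4 called genes with the smallest adjusted p were named. A result that this rule names is not reported here, though it counts in the totals. Itgb7, Itgam, Lama5 and some partner genes were named in addition, after their values were seen. In the ligand list, the older symbols Cyr61 and Ctgf were read as Ccn1 and Ccn2. The list levels and shares of FPKM were given without a test. The procedure was tested on simulated data. Alternatives were an added value of 0.1, no filter, fits of the groups compared alone, the replicate number as a block, rescaled libraries, array weights, and omission of each library and of AngII libraries 3, 4 and 5. Tables were summarised with pandas 2.3.3 and numpy 2.4.6 and drawn with matplotlib 3.10.9.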

Additional observations from a re-analysis of the deposited data

Results flagged for a closer look

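Each of the 28 tested genes was checked in each group of 5 for a library whose gap to its nearest neighbour exceeded 0.71 of the range of the group on the log2(FPKM + 1) scale, the 95% critical value of Dixon's test for 5 values. Of 84 such checks 4 passed, about as many as the 1 in 20 that chance gives. Npnt was 69.7 FPKM in AngII + RvE1 library 2, where the other 4 libraries ran from 115 to 134 FPKM. Itga3 was 6.61 FPKM in AngII library 5, where the others ran from 11.6 to 14.2 FPKM. Itga9 was 23.8 FPKM in AngII library 2, where the others ran from 9.09 to 11.9 FPKM. Itga10 was 0.907 FPKM in Sham library 3, where the others ran from 2.96 to 3.93 FPKM.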

How the results depend on the processing

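Counts are given as higher and then lower. With all 15 libraries, 9 and 2 members were called in AngII + RvE1 against AngII and 0 and 2 in AngII against Sham, out of 531 and 543, and 298 and 102, of all genes tested. In AngII + RvE1 against AngII, members called were 9 and 4 with an added value of 0.1, 3 and 1 without the filter, 13 and 2 with only the groups compared, 13 and 2 after rescaling, 14 and 9 with array weights, and 0 and 0 without AngII libraries 3, 4 and 5. All genes called were 213 and 192 without the filter, 851 and 489 with only the groups compared, 800 and 466 after rescaling, 1502 and 2967 with array weights, and 0 and 1 without those libraries. In AngII against Sham, members called were 0 and 1 without the filter, 0 and 0 with only the groups compared, 0 and 4 after rescaling, 8 and 12 with array weights, and 0 and 0 without those libraries. All genes called were 122 and 29, 30 and 7, 260 and 249, 2104 and 717, and 18 and 2 under the same 5 alternatives. In AngII + RvE1 against Sham, where 2 and 1 genes were called, these gave 1 and 0, 1 and 0, 2 and 1, 13 and 4, and 4 and 1, and no member was called under any alternative run. The cause of these changes was not tested.

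Whether the replicate numbers pair the libraries was not settled. The deviations of same-numbered libraries from their group means correlated from -0.414 to 0.521, and differently numbered libraries were not compared. With the replicate number as a block, 4 and 1 members and 269 and 164 genes were called in AngII + RvE1 against AngII, 0 and 1 members and 72 and 37 genes in AngII against Sham, and 1 and 0 genes in AngII + RvE1 against Sham.

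Leaving out each library in turn gave 0 to 13 members higher and 1 to 6 lower in AngII + RvE1 against AngII, among 44 to 833 and 51 to 1292 genes. In AngII against Sham it gave 0 to 5 and 0 to 13 members, among 57 to 1356 and 16 to 558 genes, and in AngII + RvE1 against Sham 1 to 4 and 0 to 4 genes. The vessel wall minus leukocyte level of AngII + RvE1, 3.32, was 4.01 with an added value of 0.1 and 2.88 without the filter. Read depth is unknown, so the counting error of members near 1 FPKM cannot be given.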

Other observations

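Lamb3, a beta chain of epithelial laminins, was under the filter and not tested. It was 0.316, 0.307, 0.389, 0.0587 and 0.300 FPKM in AngII + RvE1, 0.609, 0.529, 0.412, 0.574 and 0.554 FPKM in AngII, and 0.290, 0.235, 0.386, 0.485 and 0.350 FPKM in Sham. As for Lamb1, every AngII library was above every AngII + RvE1 library, at levels below 1 FPKM.

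Adhesion molecules that leukocyte integrins bind had positive values in AngII against Sham without passing the threshold in limma. Vcam1, a ligand of the integrin with the Itga4 subunit, differed by 1.30 ± 0.43 (adjusted p = 0.0872) and Icam1, a ligand of the integrins with the Itgb2 subunit, by 0.98 ± 0.35 (adjusted p = 0.108). Ccn2, a matrix protein that binds integrins, averaged 402 ± 188 FPKM in AngII + RvE1, 127 ± 107 FPKM in AngII and 426 ± 316 FPKM in Sham (SD, n = 5 each), and its difference of 1.83 ± 0.55 for AngII + RvE1 against AngII missed the threshold (adjusted p = 0.0519). Fermt3, the kindlin of blood cells, differed by -1.87 ± 0.62 in the same comparison (adjusted p = 0.0695). These 4 genes were named after their values were seen.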
